A study of Mus musculus with 4 samples.

Results

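Ephrins and Eph receptors were followed in progenitor cells of mouse subcutaneous tissue that had lost Gnas. The set was 10 named genes, found by the symbol in the amplicon name: the ligands Efna1, Efna5, Efnb1 and Efnb2 and the receptors Epha2, Epha3, Epha4, Epha7, Ephb2 and Ephb4. Each was read through 1 amplicon, of 23930 in the table. The 12 other ephrin and Eph genes on the panel were set beside them.

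Gnas encodes the stimulatory G protein alpha subunit, which activates adenylyl cyclase and so raises cyclic AMP. All cells came from C57BL/6 mice with floxed Gnas and were labelled primary progenitor cells. The mutant group (genotype Gnas-/-) received adenovirus with Cre recombinase (Ad-Cre), and the control group (genotype wild type) received Ad-GFP. Both were then held in osteogenic medium for 7 days. Each group had 2 libraries, here mutant 1, mutant 2, control 1 and control 2. The labels give neither the age of the mice nor the share of cells infected, nor whether the libraries are from different mice or dishes. P-values therefore measure only the spread between these libraries, which may be partly technical. The effects of the virus and of losing Gnas cannot be told apart.

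Eph receptors are receptor tyrosine kinases that meet their ligands, the ephrins, on the surface of neighbouring cells. Ephrin-A ligands hang on a lipid anchor and ephrin-B ligands span the membrane, so signals can pass into both cells, the one with the receptor (forward) and the one with the ligand (reverse). A-class receptors mostly bind ephrin-A and B-class receptors ephrin-B, with EphA4 binding both. In skeletal tissue of mice the system is known for tissue boundaries in the skull and for contact between bone-forming and bone-resorbing cells through ephrin-B2 and EphB4.

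The libraries held 17460018 reads in mutant 1, 14847959 in mutant 2, 18455811 in control 1 and 13483518 in control 2. Values are RPM, reads scaled to the same total in each library. No row was named Gnas, so the targeted gene was not analysed here and could not check the labels. Control 2 stood apart: summed over 12 macrophage markers it held 972 RPM, against 14.8 to 26.4 in the mutants and 46.8 in control 1. Most of that was Lyz2 (822 RPM in control 2, 33.9 RPM in control 1). Cd68, Csf1r, Tyrobp, Fcer1g, Ctss, Itgam, Adgre1 and Mrc1 were also highest in control 2, the last 2 at only 1.71 and 1.48 RPM. C1qa (0 in both controls), C1qb (0.593 RPM, against 0.704 in control 1) and C1qc (0.074 RPM, against 0.108) were not. Xist, the RNA of the inactive X chromosome, stood at 395 and 419 RPM in the mutants and at 165 and 0 RPM in the controls, and the Y-linked Ddx3y at 26.9 and 12.5 RPM in the mutants and at 61.4 and 124 RPM in the controls. The 2 controls thus differed in both of these genes and in macrophage markers, so their spread was not technical alone. The animals behind the 2 groups and the loss of Gnas cannot be told apart either. Of 10 measured stromal progenitor markers all but Dpp4 (at 0 in mutant 1 and control 2) had reads in every library. Cd34 stood at only 0.054 RPM in control 1, below the 0.163 RPM that 3 reads make there. It held 7.19 RPM in control 2 and 8.42 and 12.6 RPM in the mutants. The sum of the 10 markers was 33909 and 38086 RPM in the mutants and 16091 and 22792 RPM in the controls. Most of it was Col1a2 and Col1a1 (16666 and 21009 RPM in the mutants, 5332 and 9875 RPM in the controls). Dcn was lower in the mutants (471 and 316 RPM, against 525 and 760 RPM in the controls), and Ly6a and Vim overlapped. Of the 9 tested with limma, 0 passed as higher and 0 as lower.

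Epha4 rose in the mutants, and it was the only 1 of the 10 genes to pass the test. Of the 9 that reached the filter on low values (at least 1 RPM in at least 2 libraries), 1 rose, 0 fell and 8 did not pass. The test was limma on log2(RPM + 1), with Benjamini-Hochberg adjustment over all 11638 genes tested and a threshold of 0.05. Among all genes tested 2.3% were called, 1.73% higher and 0.576% lower. At an unadjusted p below 0.05, which 17.9% of all genes reached (11.9% higher and 6.01% lower), the members still counted 1 higher and 0 lower. On the whole reads edgeR called 0 of them and DESeq2 1 (Epha4). Over all 11638 genes edgeR called 66 higher and 27 lower, and DESeq2 598 higher and 493 lower. The median log2 difference of the 9 was 0.53, against 0.08 over all genes tested, and 6 of the 9 estimates were above 0, against 56.2% of all genes.

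**Figure D1:**
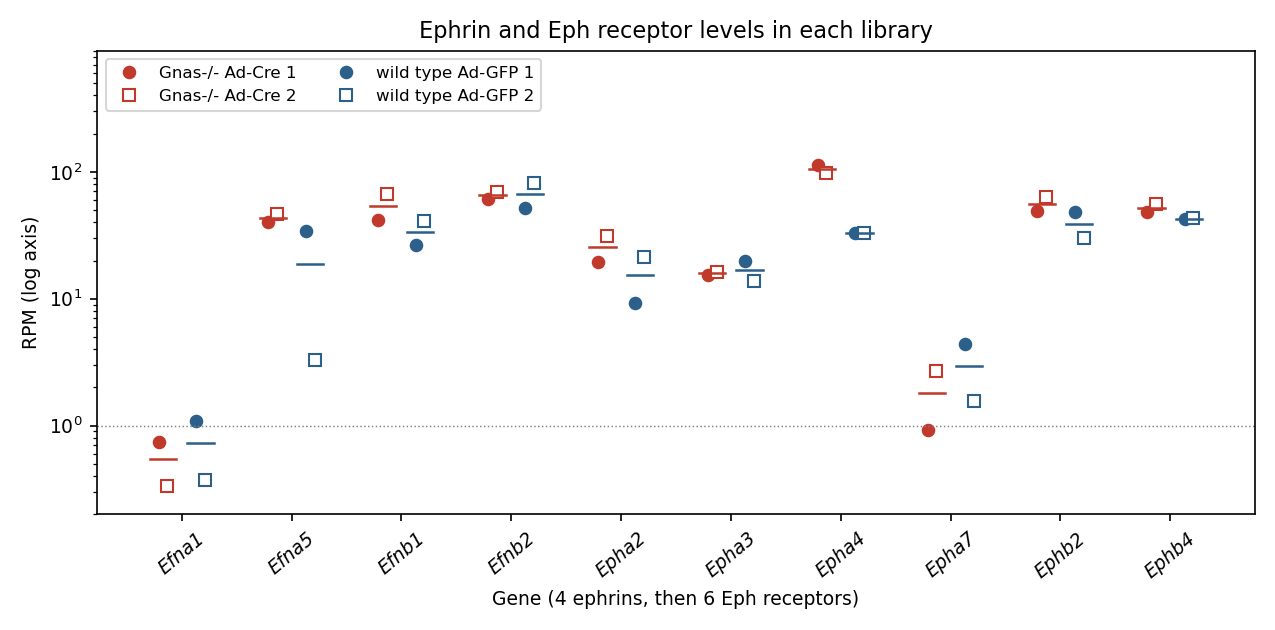
RPM of the 10 genes in each library on a log axis, with mutants (red) left of controls (blue), filled circles for replicate 1, open squares for replicate 2, a bar at each mean and a dotted line at 1 RPM. Epha4 lay at 97.0 and 113 RPM in the mutants and at 32.8 RPM in both controls, while Efna5 was low in control 2 alone, at 3.26 RPM.

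Epha4 encodes a receptor known for repelling growing axons and for binding both ligand classes. It stood at 113 RPM in mutant 1 and 97.0 RPM in mutant 2, against 32.8 RPM in control 1 and 32.8 RPM in control 2. The groups did not overlap: the mutants lay within a factor of 1.16 of each other and the controls within 1.00. The mean was 105 ± 11.1 RPM in the mutants and 32.8 ± 0.0382 RPM in the controls (SD, n = 2 each), a 3.20-fold ratio. The controls held 606 and 442 reads, so counting error alone exceeds the SD of 0.0382 RPM. Between any mutant and any control library the ratio was 2.96 to 3.44. The log2 difference was 1.64 (SE 0.21, 95% interval 1.10 to 2.18; limma, adjusted p = 0.0358).

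The size of this difference changed little with the processing, but the call did not hold throughout. Across 14 alternatives it ran from 1.54 to 1.75 on the log2 scale. The adjusted p was 0.0567 with edgeR, 0.0602 with limma and no filter, and 0.0535 with limma and no variance trend, and it ranged from 2.16e-06 to 0.583 over all 14. Leaving out mutant 1 or mutant 2 gave 0.549 and 0.583 with limma, and no gene of the whole table passed in either case. Without control 2, the library with the highest macrophage sum, the log2 difference was 1.64. In bulk RNA, more cells of a type and more RNA per cell cannot be told apart. Of 4 tested pericyte markers, 2 rose in the same comparison: Cspg4 (log2 difference 2.80; limma, adjusted p = 0.0252) and Notch3 (2.63; limma, adjusted p = 0.0325). Mcam (2.58; limma, adjusted p = 0.164) and Pdgfrb (0.10; limma, adjusted p = 0.926) did not pass. The 7 measured markers summed to 895 and 961 RPM in the mutants and to 872 and 431 RPM in the controls, most of it Pdgfrb (598 and 564 RPM in the mutants, 824 and 355 RPM in the controls). The defining markers Rgs5 and Kcnj8 stayed below 1 RPM in all 4 libraries, and Abcc9 stood at 0 and 0.067 RPM in the mutants, against 6.23 and 0.890 RPM in the controls. The part of such cells in the Epha4 result was not tested.

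The windows upstream of 3 members are shown because cyclic AMP acts on many genes through the cAMP response element, whose core letters are TGACG. On the opposite strand the core reads CGTCA, and the complete form TGACGTCA holds it on both strands. They are the 250 bases before the annotated start in RefSeq (build GRCm38.p6), each 5′ to 3′ on the strand of the gene, with core matches in capitals. Epha4 is the member that passed, Epha2 the member with the complete element, and Efnb2 the member whose estimate lay closest to 0.
Epha4 (chr1:77515089-77515338, minus strand): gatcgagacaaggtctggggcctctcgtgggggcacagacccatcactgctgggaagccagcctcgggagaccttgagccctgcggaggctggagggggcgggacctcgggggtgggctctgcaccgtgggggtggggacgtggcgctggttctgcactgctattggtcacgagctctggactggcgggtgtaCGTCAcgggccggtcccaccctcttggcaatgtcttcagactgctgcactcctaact
Epha2 (chr4:141300971-141301220, plus strand): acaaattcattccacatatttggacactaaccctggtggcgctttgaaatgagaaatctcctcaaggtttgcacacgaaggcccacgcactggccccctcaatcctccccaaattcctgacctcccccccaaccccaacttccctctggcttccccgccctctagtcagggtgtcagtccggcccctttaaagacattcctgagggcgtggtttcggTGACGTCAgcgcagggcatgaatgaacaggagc
Efnb2 (chr8:8661243-8661492, minus strand): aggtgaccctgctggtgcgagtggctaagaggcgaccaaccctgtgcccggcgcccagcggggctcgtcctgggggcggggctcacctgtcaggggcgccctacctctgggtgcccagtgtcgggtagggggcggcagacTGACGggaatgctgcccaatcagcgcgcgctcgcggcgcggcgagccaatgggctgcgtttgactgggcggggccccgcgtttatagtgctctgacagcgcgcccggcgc

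In Epha4 the core began 57 bases before the start, in Epha2 the complete element began 33 bases before it, and in Efnb2 the core began 110 bases before it. All 10 members matched the promoter table, with 12 windows between them. The core stood in 4 of these 12 windows, 1 each of Efnb1, Efnb2, Epha2 and Epha4, and in 17.8% of the 32851 windows of the table. For Efnb1 and Ephb2 the bases just after the start matched no annotated transcript of the gene, so those starts are less certain. The complete element stood in 1.55% of all windows. The letters TGGGTGGTC, a site known for the Hedgehog factor Gli, stood on neither strand of any member window and in 0.225% of all windows. Outside the members, Ephb3 also held the core. These matches describe letters only, and the genes that share the core did not share a call.

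Among the other A-class receptors, Epha2, Epha3 and Epha7 did not pass. Epha2, a receptor of epithelia and migrating cells for ephrin-A1, stood at 19.4 and 31.3 RPM in the mutants, against 9.32 and 21.3 RPM in the controls. The groups overlapped, since mutant 1 lay below control 2. Its log2 difference was 0.76 (95% interval -0.44 to 1.97; limma, adjusted p = 0.466). This difference was 1.32 without control 2 and 0.20 without control 1. Keratinocyte markers were near 0 beside it: the 8 measured summed to 0.459 and 1.35 RPM in the mutants and to 1.36 and 1.26 RPM in the controls, with Krt5 and Krt1 at 0 in every library.

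Epha3, a receptor for ephrin-A5, stood at 15.4 and 16.4 RPM in the mutants, against 19.7 and 13.7 RPM in the controls. Both mutants lay between the controls. Its log2 difference was -0.05, with a 95% interval from -0.82 to 0.73 (limma, adjusted p = 0.951), so changes within that interval are not excluded. Epha7, another receptor for ephrin-A5, was scarce, at 0.916 and 2.69 RPM in the mutants (16 and 40 reads) and 4.39 and 1.56 RPM in the controls (81 and 21 reads). The libraries of each group differed from each other by a factor of 2.94 in the mutants and 2.82 in the controls, and the groups overlapped (log2 difference -0.48, 95% interval -1.89 to 0.92; limma, adjusted p = 0.700).

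The B-class receptors Ephb2 and Ephb4 did not pass, with ratios of means of 1.43 and 1.22. Ephb2, a receptor for the ephrin-B ligands, stood at 48.7 and 63.2 RPM in the mutants, against 48.2 and 30.0 RPM in the controls. The groups did not overlap, but mutant 1 exceeded control 1 by a ratio of only 1.01. Its log2 difference was 0.53 (95% interval -0.27 to 1.34; limma, adjusted p = 0.444). Without control 1 the log2 difference was 0.87, and without control 2 it was 0.20.

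Ephb4 encodes the main receptor of ephrin-B2, known from veins and from bone-forming cells. It stood at 48.6 and 56.0 RPM in the mutants, against 42.5 and 43.2 RPM in the controls, so the groups did not overlap. The ratio of means was 1.22 and the log2 difference 0.28 (95% interval -0.28 to 0.83; limma, adjusted p = 0.562). Its log2 difference lay between 0.18 and 0.38 over the 14 alternatives, with no call.

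Of the ligands, none passed the test. Efnb2 encodes ephrin-B2, the partner of EphB4 and a mark of arteries. It stood at 60.9 and 69.5 RPM in the mutants, against 52.2 and 81.8 RPM in the controls, and both mutants lay between the controls. The log2 difference was -0.01 (95% interval -0.73 to 0.72; limma, adjusted p = 0.995). Control 2, which held the most Efnb2, also held the highest endothelial sum: 10 measured endothelial markers reached 19.6 and 38.1 RPM in the mutants and 12.2 and 93.7 RPM in the controls, with Tie1 at 0 throughout. Most of the control 2 sum was Pecam1 (24.5 RPM), Cdh5 (23.7 RPM) and Emcn (31.3 RPM), and Esam, Cldn5 and Egfl7 were also highest there. Kdr was lowest in control 2 (0.890 RPM), Vwf stood at 0 there, and Tek (4.38 RPM) lay below both mutants (5.61 and 12.2 RPM). The part of endothelial cells in the Efnb2 and Ephb4 values was not tested.

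Efnb1 encodes ephrin-B1, whose loss in humans causes a craniofacial syndrome. It stood at 41.6 and 66.3 RPM in the mutants, against 26.4 and 41.2 RPM in the controls. The groups touched without overlapping, mutant 1 exceeding control 2 by a ratio of 1.01. Its log2 difference was 0.66 (95% interval -0.24 to 1.55; limma, adjusted p = 0.403), and it was called in none of the 14 alternatives.

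Efna5 encodes ephrin-A5, a guidance cue that EphA receptors read. It stood at 40.6 and 46.5 RPM in the mutants, against 34.1 RPM in control 1 and 3.26 RPM in control 2. The mutants lay close together and above both controls, but the controls differed from each other by a factor of 10.5, with 630 reads in control 1 and 44 in control 2. The log2 difference of 1.86 therefore had an SE of 0.98 and a 95% interval from -0.62 to 4.34 (limma, adjusted p = 0.393). It was 0.34 without control 2, and 3.38 without control 1. Control 2 alone thus set most of this difference.

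Efna1, the ephrin-A ligand first known from endothelium, stood at 0.745 and 0.337 RPM in the mutants (13 and 5 reads), against 1.08 and 0.371 RPM in the controls (20 and 5 reads). Only control 1 exceeded 1 RPM, so Efna1 missed the filter and was not tested. With no filter its log2 difference was -0.15 (limma, adjusted p = 0.811).

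**Figure D2:**
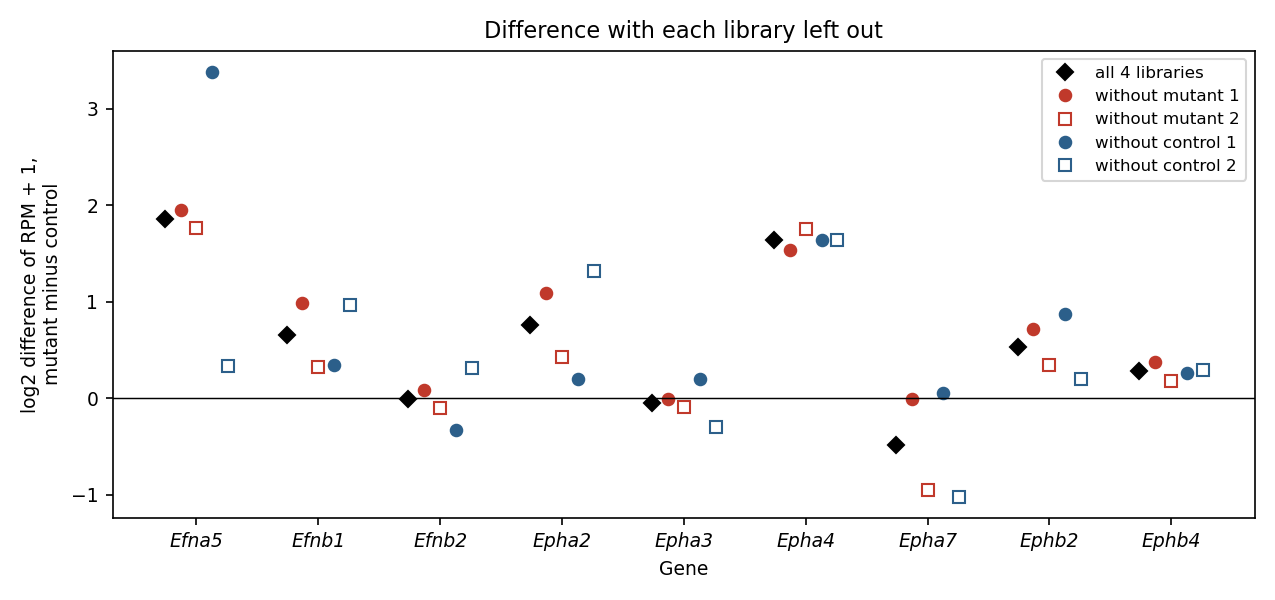
Log2 difference of RPM + 1 (mutant minus control) of the 9 tested genes with all 4 libraries (black diamonds) and with each library left out in turn. Epha4 stayed between 1.54 and 1.75, whereas Efna5 moved between 0.34 and 3.38 with the control left out.

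The controls lay farther apart than the mutants in 6 of the 9 tested members, and the mutants farther apart in 3 (Efnb1, Epha4 and Ephb4). The median absolute log2 gap was 0.21 between the 2 mutants and 0.64 between the 2 controls, against 0.23 and 0.43 over all genes tested. Without overlap between the groups stood 5 of the 9 tested members, all higher in the mutants (Efna5, Efnb1, Epha4, Ephb2 and Ephb4). Over all genes tested 51.8% did not overlap, 30.6% higher and 21.1% lower, so such a count says little about these genes.

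Of the 12 other ephrin and Eph genes, 6 reached the filter, 0 rose, 0 fell and 6 did not pass with limma, 1 was at an unadjusted p below 0.05, edgeR called 0 and DESeq2 called 1. Over all 11638 genes tested DESeq2 called 598 higher and 493 lower. The gene of this set was Ephb3, a B-class receptor. It stood at 124 and 123 RPM in the mutants, against 56.0 and 20.4 RPM in the controls. The groups did not overlap and the ratio of means was 3.24, close to that of Epha4, but the controls differed by a factor of 2.75. Its log2 difference was 1.84 (95% interval 0.61 to 3.06; limma, adjusted p = 0.147), and DESeq2 gave 1.63 with an adjusted p of 0.0140. With limma the log2 difference was 2.54 without control 1 and 1.13 without control 2.

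The ligand genes Efna4 (16.3 and 13.8 RPM in the mutants, 12.3 and 10.6 RPM in the controls) and Efna2 (6.36 and 10.4 RPM in the mutants, 6.72 and 5.86 RPM in the controls) had log2 differences of 0.36 and 0.33. Efna3 (0.25), Epha1 (0.18) and Ephb6 (0.60, a receptor whose kinase domain is inactive) had 95% intervals that spanned 0. The 6 that missed the filter were Efnb3, Epha5, Epha6, Epha8, Epha10 and Ephb1, all at or below 0.916 RPM in every library. Epha10 had no read in any library, which allows up to 3 reads, or 0.172 and 0.202 RPM in the mutants and 0.163 and 0.222 RPM in the controls.

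**Figure D3:**
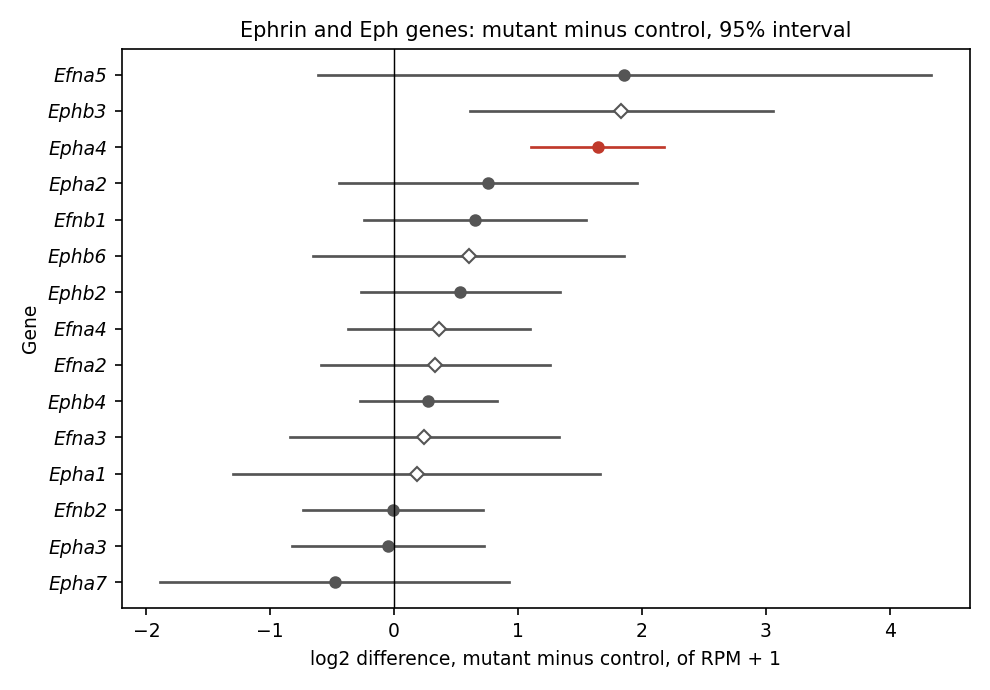
Log2 difference of RPM + 1 (mutant minus control) with its 95% interval from limma for the 15 tested ephrin and Eph genes, filled circles for the 9 members and open diamonds for the other 6. Only Epha4 (red, 1.64) passed the adjusted test, and the widest interval, that of Efna5, ran from -0.62 to 4.34.

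A broad list of genes was read for partners that carry Eph and ephrin signals inside the cell, cut the proteins or anchor them. The part of each gene in Eph signalling of these cells was not tested. For Lmo7 the role given below is binding afadin, not an Eph receptor or ephrin. Of 40 measured, 32 were tested: 3 rose, 0 fell and 29 did not pass, beside 1.73% higher and 0.576% lower over all genes. At an unadjusted p below 0.05 there were 9 higher and 2 lower, beside 11.9% and 6.01% of all genes. On the whole reads edgeR called 0, and DESeq2 called 5 higher and 2 lower. Over all 11638 genes tested edgeR called 66 higher and 27 lower, and DESeq2 598 higher and 493 lower. The median log2 difference was 0.12, against 0.08 over all genes tested.

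Lmo7, a LIM domain protein that binds afadin at cell junctions, rose to 80.3 and 98.5 RPM in the mutants, against 12.4 and 4.52 RPM in the controls (log2 difference 3.39, SE 0.47; limma, adjusted p = 0.0387). Tiam1, which switches on the small GTPase Rac, rose to 118 and 90.2 RPM in the mutants, against 34.9 and 35.0 RPM in the controls (1.53, SE 0.23; limma, adjusted p = 0.0474). Grb10, an adaptor that docks on receptor tyrosine kinases, rose to 415 and 402 RPM in the mutants, against 176 and 163 RPM in the controls (1.26, SE 0.20; limma, adjusted p = 0.0498). The groups of all 3 did not overlap. Their calls lay close to the threshold: with edgeR the adjusted p was 0.0624 for Lmo7, 0.0696 for Tiam1 and 0.0866 for Grb10, with limma and no filter 0.0704, 0.0745 and 0.0886 in the same order, and with limma and no trend 0.0509, 0.0710 and 0.0839. Tiam1 and Grb10 also missed it under TMM scaling (limma, adjusted p = 0.0553 and 0.0570). The log2 difference of Lmo7 was 4.02 without control 1 and 2.75 without control 2. Leaving out either mutant ended all 3 calls.

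The 4 next in order did not pass. Ngef, or ephexin, known to act downstream of EphA4 in neurons, stood at 16.2 and 26.3 RPM in the mutants, against 0.596 and 3.26 RPM in the controls (log2 difference 3.05; limma, adjusted p = 0.0750). Abl2, a tyrosine kinase, stood at 2.81 and 1.75 RPM in the mutants, against 22.0 and 11.1 RPM in the controls (-2.36; limma, adjusted p = 0.0754). Mllt4, which encodes afadin, stood at 129 and 118 RPM in the mutants, against 61.0 and 29.3 RPM in the controls (1.52; limma, adjusted p = 0.132). Sipa1l1, a regulator of Rap GTPases that binds EphA4, had a log2 difference of 0.80 (limma, adjusted p = 0.140). The groups of these 4 genes did not overlap, and DESeq2 called Ngef, Abl2 and Mllt4.

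**Figure D4:**
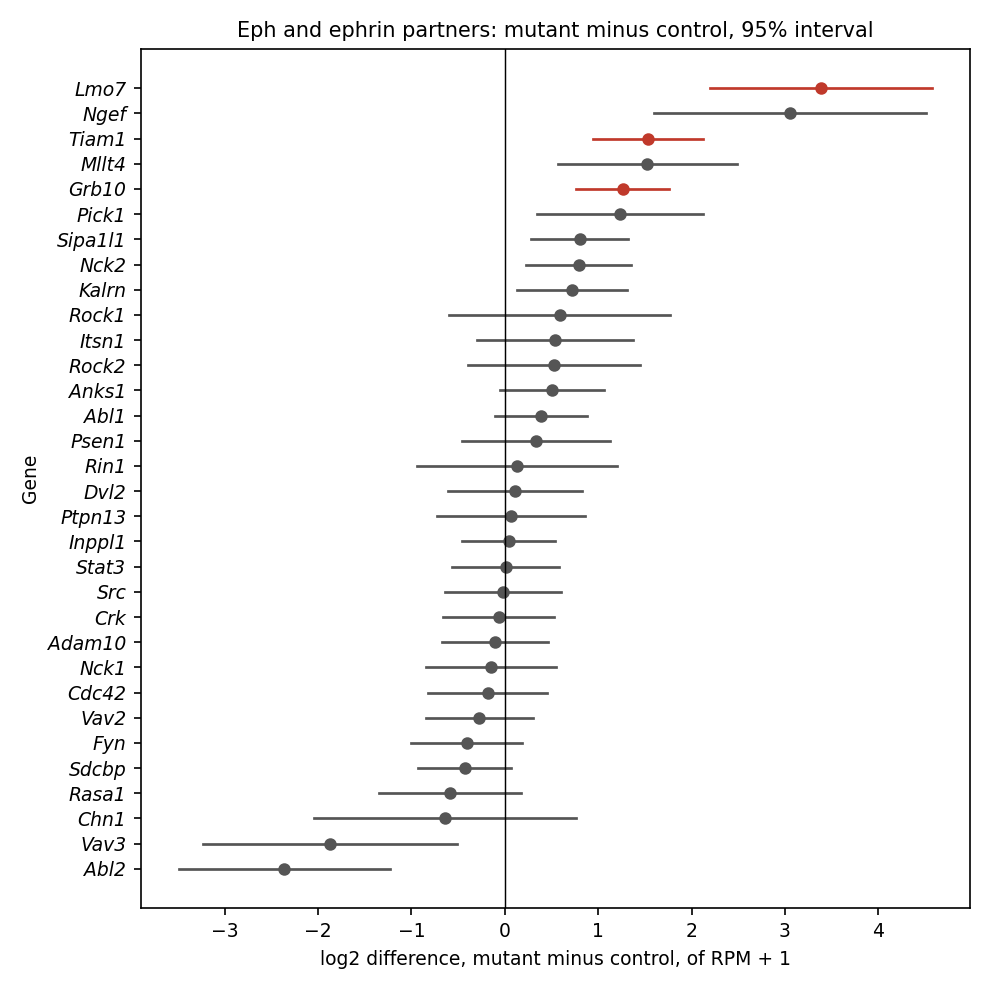
Log2 difference of RPM + 1 (mutant minus control) with its 95% interval from limma for the 32 tested signalling partners, in order of size. Lmo7, Tiam1 and Grb10 (red) passed the adjusted test, and Abl2 had the lowest estimate at -2.36.

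Genes with profiles most like those of Epha4 and Efna5, the 2 members with the smallest unadjusted p, were taken by the root-mean-square difference of centred log2(RPM + 1) over the 4 libraries, with predicted genes passed over. For Epha4 they were Fam26e (0.0247), F11r (0.0256) and Plcd4 (0.0273), among 11 genes within 0.1. F11r, the gene of a junctional adhesion molecule, stood at 133 and 109 RPM in the mutants, against 37.7 and 38.3 RPM in the controls. Plcd4 was scarce, at 2.46 and 2.02 RPM in the mutants and 0.054 and 0 RPM in the controls. It reached the filter through the mutants alone and did not pass (limma, adjusted p = 0.0948). At such values its likeness to Epha4 depends on the 1 RPM added before the logarithm. For Efna5 they were Vezt (0.106), Eif5a2 (0.106) and Entpd2 (0.134), with no gene within 0.1. These 3 shared its low value in control 2: Vezt stood at 8.08 and 11.2 RPM in the mutants, against 8.24 RPM in control 1 and 0 in control 2. With 4 libraries such likeness describes these values only.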

How the data were processed

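Messenger RNA was measured with an Ion AmpliSeq transcriptome panel for mouse after SuperScript VILO synthesis of complementary DNA, per the labels' protocols. The panel reads 1 short amplicon per gene, so a variant under a primer or a transcript without the target lowers a value, and levels of different genes cannot be ranked. The deposited table gives RPM, scaled by the authors to the total of each library. For the aligner, counter, build and filters, nothing is stated: they were not given in the sources used here. Of the non-zero values 100% were whole reads within 0.01 read. Floors reflect counting error alone, because the reads carry no molecular identifiers.

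Genes reaching 1 RPM in 2 or more libraries entered limma 3.58.1 (R 4.3.3, lmFit, then eBayes with trend) as log2(RPM + 1), mutant against control, two-sided, with Benjamini-Hochberg adjustment. The log2 difference understates changes of genes with low values. SDs cover 2 libraries. Alternatives were pseudocounts of 0.5 and 5, no filter or 5 RPM, median-of-ratios and TMM scaling, a fit with no trend, one blocked by replicate number, leaving out each library, and edgeR 4.0.16 (quasi-likelihood) or DESeq2 1.42.0 on the whole reads. The scripts were tested on simulated data. Promoter windows are RefSeq's (GRCm38.p6) and figures used Python 3.11.15 with matplotlib 3.10.9.

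The members and lists were chosen with earlier results of these data known. All members are named, then other ephrin and Eph genes past the filter, up to 4 partners past the threshold, the next 4 by unadjusted p, and 3 similar genes for each of 2 members. Fam26e and the other similar genes follow that rule. Genes that missed the filter and the cell markers are named outside it, chosen after their values were seen.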

Additional observations from a re-analysis of the deposited data

How the results depend on the processing

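Of the 10 members, 1 was higher and 0 lower. The number higher was 0 with no filter, 0 with no trend, 0 with edgeR and 0 to 3 with a library left out, and the number lower stayed at 0 in all 14 alternatives. Over all genes 201 were higher and 67 lower. With no filter these were 56 and 18, with edgeR 66 and 27, with DESeq2 598 and 493, and with a library left out 0 to 1609 and 0 to 802. An arm left with 1 library is assumed to vary like the other. The labels gave no pairing by replicate number. The correlation of same-numbered deviations was 0.164. With 2 libraries per group the deviations of replicate 2 mirror those of replicate 1, so this is a single value and cannot decide on pairing. A replicate block gave 301 higher and 123 lower genes over all, left Epha4 as the only member called, ended the call of Grb10 (adjusted p = 0.0520 in limma) and brought Ngef (0.0222) and Abl2 (0.0378) past the threshold.

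Tiam1 and Grb10 also lost their calls with a pseudocount of 0.5, median-of-ratios or TMM scaling. Directions turned with a library left out for Efnb2 (log2 difference -0.33 to 0.31), Epha3 (-0.29 to 0.20), Epha7 (-1.02 to 0.057), Efna3 (-0.18 to 0.67) and Epha1 (-0.50 to 0.87), and for Epha1 with DESeq2 (-0.018), none of them called. The cause was not tested. With a library left out Ephb3 ran from 1.13 to 2.54. Efna1 held 5 to 20 reads a library and Epha7 16 to 81.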
